A study of Mus musculus with 12 samples.

Results

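The 46 genes described here work in S phase and mitosis, and their messenger RNA was measured in mouse osteosarcoma cells on 12 one-colour Agilent arrays. They were chosen by name for their known roles, among 20144 genes that the arrays could name, and 63 probes matched them through the transcript accessions of the array design. Dunn is an osteosarcoma line of low metastatic potential, and LM8 is its metastatic derivative, obtained from Dunn cells by selection in living mice. Dunn cells were harvested at passage 25 (early) and passage 86 (late), and LM8 cells at passage 24 (early) and passage 91 (late), with 3 arrays a group. All 4 groups were untreated, grew in the same medium, and were harvested while still below confluence. The comparisons address whether long culture changes expression within a line and how the metastatic line differs from its parent. Each is a single established line, so the selection for metastasis and the history of 1 line cannot be told apart.

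A cell that enters the cycle frees E2F factors, which switch on the genes of DNA replication, and makes cyclin E. The MCM helicase is loaded onto origins by Cdc6 and Cdt1, and the DNA is copied around the sliding clamp Pcna. Foxm1 and the MuvB complexes then switch on the mitotic genes, whose products build the spindle, check the attachment of kinetochores and mark old proteins for destruction by the anaphase-promoting complex. As these messages rise and fall with the cycle, their level in a culture is widely read as a sign of how many cells are dividing. In bulk RNA, fewer dividing cells and less RNA per dividing cell cannot be told apart.

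Levels below are the log2 of the processed spot signal minus the 75th percentile of the array, so a value of 0 is a probe as bright as that percentile and 1 unit is a doubling. Each gene is represented by its probe with the highest mean, and levels of different probes were not compared. The 75th percentile itself ran from 287.2 to 1903 signal units, with the 3 early Dunn arrays lowest and late LM8 arrays 2 and 3 highest, and 39.1% to 59.7% of probes lay well above background. Replicate arrays of a group correlated at 0.945 to 0.989. The osteoblast markers Runx2, Sp7, Ibsp and Col1a1 were well above background on 12 of 12 arrays, while the epithelial Cdh1 and Krt8 and the endothelial Cdh5 were so on 0. Of the other osteoblast markers listed, Alpl was well above background on 11 arrays, Spp1 on 10 and Col1a2 on 8, every array that measured them. Dmp1 was so on 10, with levels of -6.38 to -1.78. The osteoblast Bglap and the haematopoietic Cd68 were not measured. Of the whole set of markers of other cell types, the endothelial Kdr and the T cell gene Cd3e were well above background on 12 arrays, Pecam1 on 7, Ptprc and Epcam on 2 and Krt18 on 1, and their part in the results was not tested.

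Most of the 46 genes were readily measured. Of these genes, 39 were well above background on every array that measured them and 24 were so on all 12 arrays. Ccne2, the second cyclin E, and Aurkb, the kinase of the chromosomal passenger complex, were well above background on 0 of 12 arrays, and the centromere protein gene Cenpf on 5. In 15 genes at least 1 spot was left out as an outlier by the scanner software. These losses fell mainly on the early Dunn arrays, with 7 genes not measured on array 2 and 9 on array 3, against 0 on the late LM8 arrays.

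**Figure D1:**
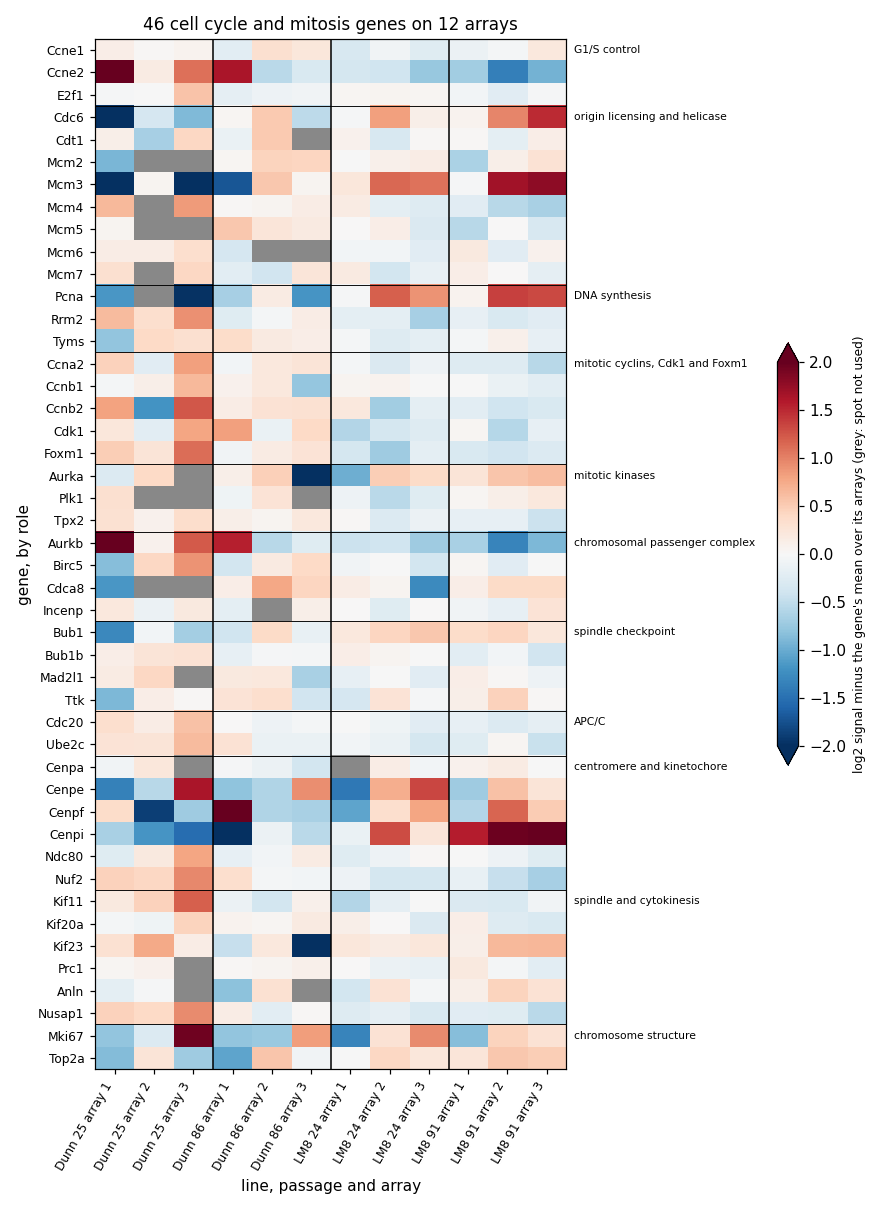
Level of each of the 46 genes (rows, grouped by role) on each of the 12 arrays (columns, by group), as log2 signal relative to the 75th percentile of the array, with the mean of the gene over its arrays subtracted. Grey cells are outlier spots that were left out. The rows of Cenpi, Pcna and Mcm3 are on average lower in Dunn than in LM8, with some arrays of the lines overlapping, while most others stay near their mean.

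LM8 differed from Dunn in few of these genes when passages were pooled (6 arrays against 6). The genes that rose were Cenpi, Pcna, Mcm3 and Bub1, by 1.66-fold to 5.02-fold. They act at different steps. Cenpi is a subunit of the constitutive centromere network and Bub1 a kinase of the spindle checkpoint, whereas Pcna is the sliding clamp of DNA polymerases and Mcm3 a subunit of the replicative helicase. The 4 genes make up 8.7% of the 46, and 5.71% of all genes tested were called higher. Another 8 of the 46 (17.4%) were called lower, against 37.9% of all genes. Genes were called by limma at a Benjamini-Hochberg adjusted p under 0.05 over all probes. The median log2 difference of the 46 genes was -0.13, against -0.66 over all genes tested, so the 46 lay 0.53 above the bulk of the genes. With the percentile taken over bright probes the median of the 46 was 0.16. The split of 4 higher and 8 lower turned on the scaling: it was 4 and 2 after quantile normalization, and 4 and 0 when the percentile was taken over probes well above background on all arrays. Without any scaling between arrays it was 19 and 0. Unscaled signals hold the brightness of the whole array, which was higher in LM8. The share of all genes called under these settings is not given here, so the splits are not read as particular to these genes. The lower calls also went under the same kind of scaling. The split was 4 and 0 with outlier spots kept, where the percentile was taken again with those spots. It was 3 and 0 without slide 1.

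Among the 39 genes well above background on every array measured, 3 were called higher and 5 lower (7.69% and 12.8%), where 6.06% and 31.4% of all genes of that brightness were. Their median was -0.14, against -0.33 over all genes of that brightness.

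Cenpi had the largest rise. Its level was -2.74, -3.27 and -3.61 on the early Dunn arrays, -5.06, -2.21 and -2.62 on the late Dunn arrays, -2.22, -0.78 and -1.84 on the early LM8 arrays, and -0.51, -0.13 and -0.06 on the late LM8 arrays. The late LM8 arrays stood above all others and early LM8 lay between them and Dunn, touching Dunn only where early LM8 array 1 met late Dunn array 2. The probe was not well above background on late Dunn array 1, the lowest value. LM8 exceeded Dunn by 2.33 (SE 0.52, 5.02-fold, limma adjusted p = 0.011), and within slides 1, 2 and 3 the difference was 2.54, 2.29 and 2.16.

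Pcna gave 1.9 and 1.09 on early Dunn arrays 1 and 3, with array 2 not measured, and 2.41, 3.23 and 1.88 on the late Dunn arrays. In LM8 it was 3.05, 4.27 and 3.96 at early passage and 3.13, 4.43 and 4.39 at late passage. Only array 2 of late Dunn reached the range of LM8. The difference was 1.77 (SE 0.41, 3.41-fold, limma adjusted p = 0.0147). Early and late LM8 had nearly the same levels.

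Mcm3 was -0.43, 2.1 and -0.33 in early Dunn and 0.33, 2.59 and 2.1 in late Dunn. It was 2.27, 3.2 and 3.13 in early LM8 and 2.02, 3.72 and 3.83 in late LM8. The Dunn arrays were widely spread and the highest of them overlapped the lowest of LM8, both LM8 groups being lowest on array 1. LM8 was higher by 1.96 (SE 0.59, 3.9-fold, limma adjusted p = 0.0302).

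Bub1 ran from 0.15 to 1.82 over the 6 Dunn arrays and from 1.64 to 1.97 over the 6 LM8 arrays. Its LM8 values were tightly grouped, and late Dunn array 2 lay among them. The difference was 0.73 (SE 0.26, 1.66-fold, limma adjusted p = 0.0393). The loading factor Cdc6 (1.16, adjusted p = 0.0515) and Top2a, the topoisomerase that untangles sister chromatids (0.63, adjusted p = 0.0883), did not pass, although limma with the replicate number as a block called both, with an adjusted p of 0.0349 for Top2a.

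**Figure D2:**
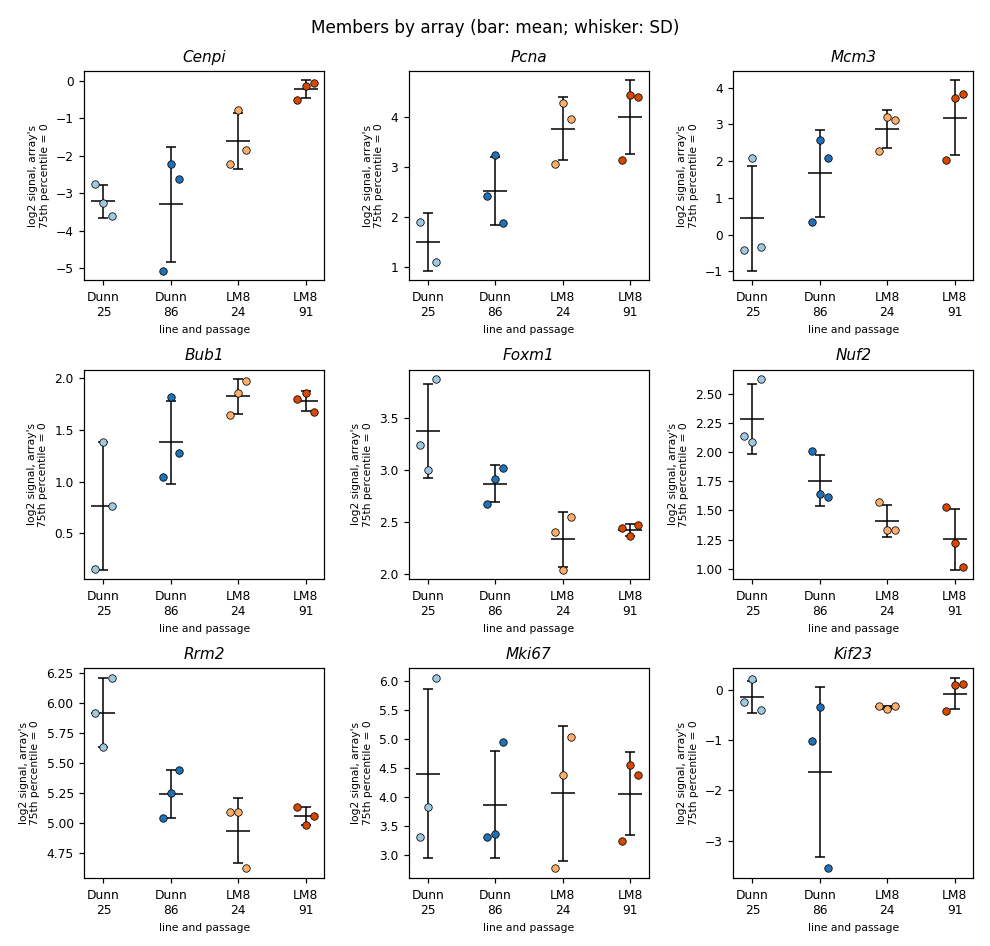
Levels of Cenpi, Pcna, Mcm3, Bub1, Foxm1, Nuf2, Rrm2, Mki67 and Kif23 on each array (vertical axes, log2 signal relative to the 75th percentile of the array, each on its own scale), with 1 point per array, a bar at the mean of each group and whiskers of 1 SD. Cenpi, Pcna, Mcm3 and Bub1 are higher in LM8, Foxm1 and Nuf2 are lower there without overlap of the lines, and Mki67 spreads over more than 2 units within early Dunn.

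Of the lower genes, Foxm1, the transcription factor of the mitotic genes, was 3.24, 3 and 3.87 in early Dunn and 2.67, 2.91 and 3.02 in late Dunn, against 2.4, 2.04 and 2.55 in early LM8 and 2.44, 2.36 and 2.47 in late LM8. The 6 LM8 arrays lay below all 6 Dunn arrays. The difference was -0.74 (SE 0.21, limma adjusted p = 0.0288), and a second Foxm1 probe gave -0.79.

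Nuf2, a subunit of the Ndc80 complex that binds microtubules at the kinetochore, was 2.14, 2.09 and 2.63 in early Dunn and 2.01, 1.64 and 1.62 in late Dunn, against 1.57, 1.33 and 1.33 in early LM8 and 1.53, 1.22 and 1.01 in late LM8. The lines did not overlap here either. The difference was -0.69 (SE 0.21, limma adjusted p = 0.0304), whereas a second, dimmer Nuf2 probe, well above background on 7 arrays, gave 0.37.

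The helicase subunit Mcm4 differed by -0.63 (SE 0.23, limma adjusted p = 0.0485), and by -0.6 with the replicate block (adjusted p = 0.0549). Cdk1, the kinase that drives entry into mitosis, has 3 probes that did not move together. The brightest differed by -0.63 (limma adjusted p = 0.045) and the second, well above background on 9 arrays, by 2.45 (adjusted p = 0.0231), while the third was well above background on 0 arrays. No direction is therefore given for Cdk1. Cdca8, whose product is the chromosomal passenger subunit borealin, was not called on its brightest probe (-0.07), which measured 1 early Dunn array, but its second probe, measured on 12 arrays, gave -1.03 (adjusted p = 0.00822).

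Nusap1, a spindle protein, and Rrm2, the small subunit of ribonucleotide reductase, are the remaining measurable falls, each of -0.59 (limma adjusted p = 0.0402 and 0.0491). The replicate block called Nusap1 but not Rrm2. Nusap1 was named after its values were seen. Ccne2 and Aurkb were also called lower, but neither was well above background on any array, so no level or fold is given. The falls of Foxm1, Nuf2, Mcm4, Nusap1 and Rrm2, from -0.59 to -0.74, compare with a median of -0.66 over all genes and of -0.33 over genes well above background on every array measured, as these 5 are. With the percentile taken over bright probes none of the 5 was called lower, and without scaling the differences of Foxm1, Nuf2 and Mcm4 turned to 0.43, 0.48 and 0.55.

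The count depended on single arrays. It fell from 12 to between 2 and 7 without early Dunn array 1 or 3, late Dunn array 1, early LM8 array 2 or 3, or any late LM8 array, and it was 3 without the 4 arrays of slide 1. Cenpi and Pcna were called under all 24 alternatives tried, Cenpi at 1.16 to 3.5 and Pcna at 1.52 to 2.96. Mcm3 was called under 15 of the 24, Bub1 under 12, Foxm1 under 16, Nuf2 under 11 and Mcm4 under 7.

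By role, the sets held few called genes each. Of the 3 genes of G1/S control, Ccne1 (cyclin E) differed by -0.2 on its first probe and 1.62 on its second, and the activator E2f1 differed by -0.06, neither called. Of the 8 origin licensing and helicase genes, Mcm3 was higher, Mcm4 was lower, and the other 6 were not called, among them Mcm2 at 0 (SE 0.31). Mcm2 was measured on only 1 early Dunn array, so its pooled Dunn mean rests mostly on late Dunn. Its line difference was 0.99 at early and -0.38 at late passage, neither called. The 5 genes of the mitotic cyclins, Cdk1 and Foxm1 had a median of -0.53 and, with the brightest Cdk1 probe, differences below 0, against 15455 of 20143 genes below 0 in all. Ccnb1, the cyclin partner of Cdk1 at mitosis, differed by -0.08 (SE 0.22). The 4 checkpoint genes had a median of 0.03 and the 6 centromere and kinetochore genes a median of 0.19. The 14 genes of S phase had a median of -0.13 and the 32 genes of mitosis one of -0.14.

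**Figure D3:**
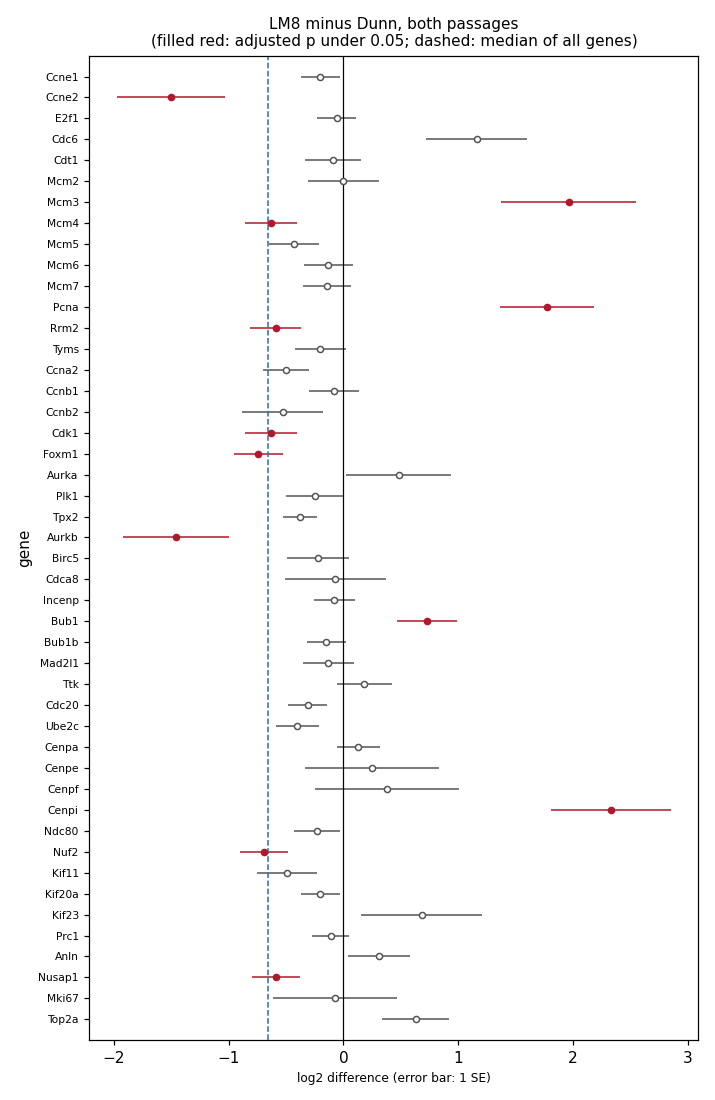
Log2 difference of LM8 minus Dunn with passages pooled for each of the 46 genes (rows, ordered by role), with bars of 1 standard error from limma and filled points for genes called at an adjusted p under 0.05. A dashed line marks the median over all genes at -0.66, and the differences of Cenpi (2.33), Mcm3 (1.96) and Pcna (1.77) lie farthest to the right.

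Promoters are shown for the 4 genes that rose, and also for Nuf2, which was lower, and Cdk1, for which no direction is given. Those of Nusap1 and Rrm2, also called lower, are not shown. Each is the 250 bases before the transcription start, 5′ to 3′ on the strand of the gene, from RefSeq on assembly GRCm38.p6. Capitals mark the words TTTGAA (the cell cycle homology element, bound by MuvB complexes), CCAAT (the box bound by NF-Y) and the E2F words TTTGGCGC, TTTCCCGC and TTTCGCGC, each searched on both strands. The regions are chrX:134307834-134308083 (plus strand) for Cenpi, chr2:132253181-132253430 (minus) for Pcna, chr1:20820313-20820562 (minus) for Mcm3, chr2:127831860-127832109 (minus) for Bub1, chr1:169531465-169531714 (minus) for Nuf2 and chr10:69352913-69353162 (minus) for Cdk1.
Cenpi: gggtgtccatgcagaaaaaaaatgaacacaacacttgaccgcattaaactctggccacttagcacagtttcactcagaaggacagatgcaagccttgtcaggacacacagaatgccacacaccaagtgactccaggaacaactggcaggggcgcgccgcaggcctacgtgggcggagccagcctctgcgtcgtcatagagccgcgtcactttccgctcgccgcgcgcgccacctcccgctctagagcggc
Pcna: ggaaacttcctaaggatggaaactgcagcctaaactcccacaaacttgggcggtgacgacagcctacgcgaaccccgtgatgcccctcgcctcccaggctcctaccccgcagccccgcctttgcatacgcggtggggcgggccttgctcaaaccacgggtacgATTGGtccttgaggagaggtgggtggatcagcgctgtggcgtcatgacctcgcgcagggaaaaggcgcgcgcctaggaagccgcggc
Mcm3: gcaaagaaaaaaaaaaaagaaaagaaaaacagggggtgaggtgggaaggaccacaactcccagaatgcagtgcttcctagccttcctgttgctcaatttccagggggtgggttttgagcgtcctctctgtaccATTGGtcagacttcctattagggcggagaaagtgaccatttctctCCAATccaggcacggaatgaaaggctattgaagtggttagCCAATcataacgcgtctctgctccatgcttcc
Bub1: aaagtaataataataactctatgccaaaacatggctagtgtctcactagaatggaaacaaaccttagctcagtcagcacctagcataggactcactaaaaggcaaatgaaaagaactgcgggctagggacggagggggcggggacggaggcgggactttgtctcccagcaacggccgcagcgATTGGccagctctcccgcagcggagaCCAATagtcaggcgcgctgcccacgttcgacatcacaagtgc
Nuf2: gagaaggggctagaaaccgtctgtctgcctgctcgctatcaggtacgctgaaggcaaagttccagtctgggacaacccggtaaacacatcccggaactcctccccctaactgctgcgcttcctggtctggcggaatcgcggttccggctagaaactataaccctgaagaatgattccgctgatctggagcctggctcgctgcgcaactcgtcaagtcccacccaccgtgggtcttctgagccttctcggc
Cdk1: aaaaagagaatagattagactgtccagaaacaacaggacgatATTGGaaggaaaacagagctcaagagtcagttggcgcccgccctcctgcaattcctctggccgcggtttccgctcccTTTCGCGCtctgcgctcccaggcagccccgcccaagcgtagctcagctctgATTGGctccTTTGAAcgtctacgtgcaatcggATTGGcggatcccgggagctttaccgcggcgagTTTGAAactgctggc
The windows of Pcna, Mcm3 and Bub1 hold 1, 3 and 2 CCAAT words, that of Cdk1 holds all 3 kinds of word, and those of Cenpi and Nuf2 hold none.

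Over the 38 of the 46 genes with a promoter in the table, CCAAT was present in 26 (68.4%, against 37.5% of 27025 genes) and TTTGAA in 9 (23.7%, against 18.3%). All of the 9 also held CCAAT, a pairing found in 6.45% of all promoters. An E2F word was present in 5 (13.2%, against 1.78%). These matches are a description of the letters in this window.

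At early passage alone, 0 of the 46 genes were called between LM8 and Dunn by limma (4.55% of all genes were). At an unadjusted p under 0.05, 5 were higher (background 5.1%) and 6 lower (background 37.5%). Mcm3 led with 2.42 (SE 0.73), followed by Pcna with 2.26 (SE 0.52) and Cenpi with 1.59 (SE 0.47), each at an adjusted p of 0.0776. The lowest measurable differences were those of Foxm1 at -1.03, Rrm2 at -0.99 and the spindle motor gene Kif11 at -0.88. Rrm2 was 5.92, 5.63 and 6.21 in early Dunn and 5.09, 5.09 and 4.62 in early LM8, without overlap. Without early Dunn array 2 the count of called genes was 10, and with array quality weights it was 21. These counts are given without the share of all genes called under the same setting. The methods' t-test, taken here as an ordinary equal-variance t-test, called 0 after Benjamini-Hochberg adjustment and 15 without it. The share of all genes passing the unadjusted t-test was not counted, so the 15 cannot be read as particular to these genes.

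At late passage, limma again called 0 of the 46 (3.83% of all genes), and at an unadjusted p under 0.05 there were 2 higher (background 6.42%) and 1 lower (background 15.8%). Cenpi was higher by 3.06 (SE 0.79, adjusted p = 0.129), with late Dunn array 1, where its probe was not well above background, setting much of the spread. Without that array Cenpi was called, at 2.18 (SE 0.26, adjusted p = 0.00548). Pcna was higher by 1.48 (SE 0.53, adjusted p = 0.224). The gene at an unadjusted p under 0.05 that was lower was the mitotic cyclin Ccnb2, with -0.55 (SE 0.2, adjusted p = 0.23). The other differences at the ends of the order of measurable genes were 1.55 for the cytokinesis motor gene Kif23, 1.51 for Mcm3, -0.61 for Mcm5 and -0.59 for Cdk1 (2.32 on its second probe), none called. The methods' t-test called 1 gene after adjustment and 8 without it, the share of all genes without adjustment again not being counted. The comparisons at early and at late passage share no arrays.

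Long culture of Dunn cells left these genes without a called change. By limma 0 of 46 passed (0.00497% of all genes did), and 1 of 46 had an unadjusted p under 0.05, against 6.81% of all genes. By the methods' t-test the counts were 0 after adjustment and 7 without it, with no share of all genes counted for the latter. The median difference of late minus early Dunn was -0.18, with 14 genes above 0 and 32 below, and that of all genes was -0.34. The gene at an unadjusted p under 0.05 was Cdca8. It was 2.21 on the only early Dunn array that measured it and 3.5, 4.15 and 3.8 in late Dunn, and a second Cdca8 probe measured on all arrays differed by -0.35, so the probes disagree in direction.

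Mcm2 was likewise measured on 1 early Dunn array, at 1.79, and was 2.74, 3.15 and 3.14 in late Dunn (1.22, SE 0.51, adjusted p = 0.782). Mcm3 differed by 1.23 with an SE of 0.94. The largest negative difference was that of Kif23, at -1.48 with an SE of 0.87. Its late Dunn levels of -1.01, -0.34 and -3.55 show that array 3 set that value, the early Dunn arrays lying between -0.41 and 0.21. Kif11 differed by -0.75 (SE 0.39) and Rrm2 by -0.68 (SE 0.32). A second probe of the cyclin E gene Ccne1 differed by 3.39 between late and early Dunn where the first differed by 0.04, and neither was called.

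In LM8, too, no change with culture was called. The median of late minus early LM8 was 0.06, with 26 genes above 0 and 20 below, against -0.18 for all genes. By limma 0 of the 46 were called, where 2.82% of all genes were, and 1 had an unadjusted p under 0.05, where 15.9% of all genes had. The methods' t-test gave 0 after adjustment and 2 without it, with no share of all genes counted for the latter. The gene with an unadjusted limma p under 0.05 was Cenpi, whose 3 late LM8 arrays lay above the 3 early ones (1.38, SE 0.39, adjusted p = 0.185). Within slides 1, 2 and 3 it was higher by 1.71, 0.65 and 1.78. Of 18 alternatives, only leaving out early LM8 array 2 called it, with a limma adjusted p of 0.0352. Next came Cdca8 with 0.65 (-0.11 on its second probe) and Cdc6 with 0.54. The lowest measurable differences were those of Mcm4 at -0.38, the checkpoint gene Bub1b at -0.28 and Mcm5 at -0.25. The median standard error was 0.21 here and 0.44 in Dunn.

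**Figure D4:**
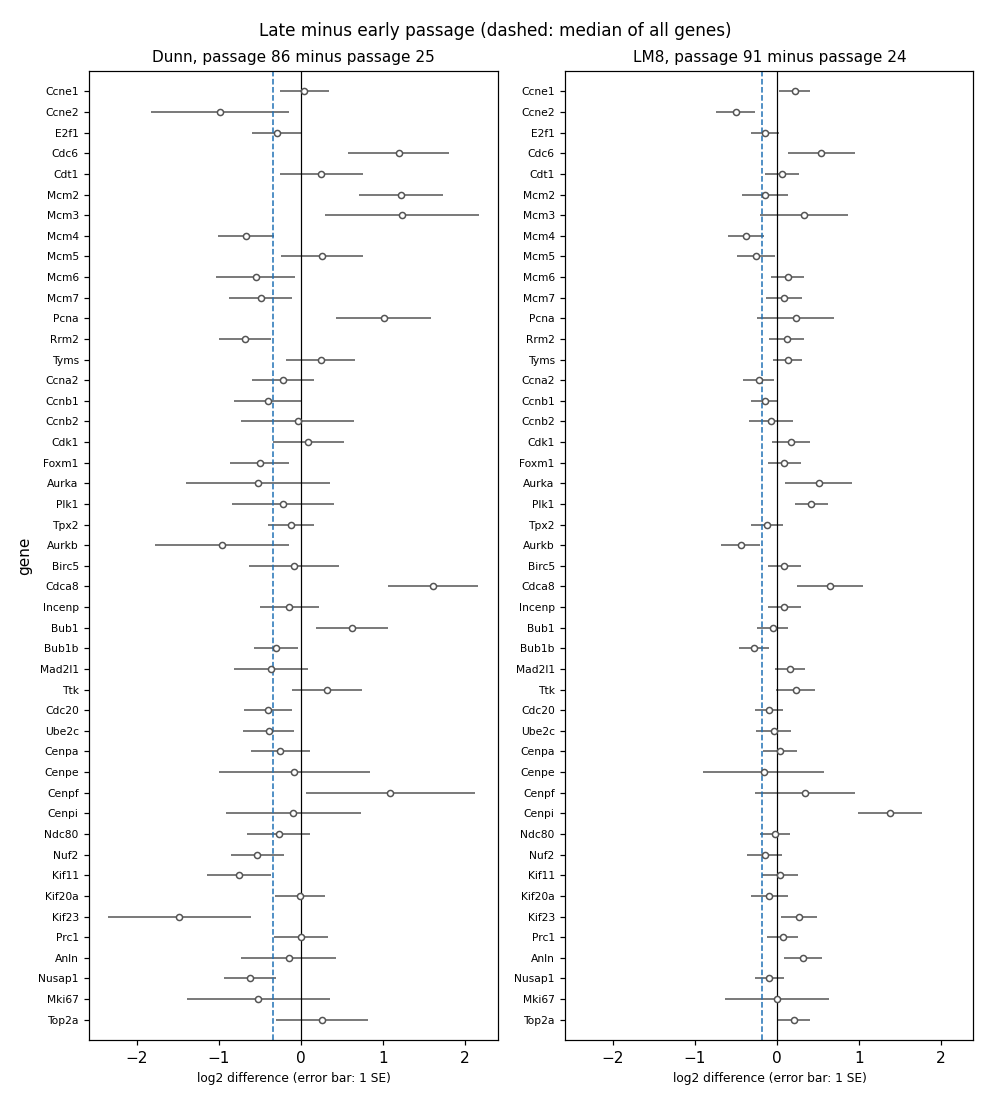
Log2 difference of late minus early passage (horizontal axes) for each of the 46 genes (rows), in Dunn on the left and in LM8 on the right, with bars of 1 standard error from limma and a dashed line at the median of all genes. The LM8 differences lie between -0.5 and 1.38 and the Dunn differences between -1.48 and 1.61, and none was called in either line.

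Whether passage acted differently in the lines was tested as an interaction term in limma, which used the 12 arrays together. Limma called 0 of the 46 genes (0.601% of all genes), and 2 had an unadjusted p under 0.05 (6.86% of all genes). They were Mcm2, at -1.37 (SE 0.52, adjusted p = 0.739), and Rrm2, at 0.8 (SE 0.34, adjusted p = 0.845). The largest values in either direction that remained were 1.76 for Kif23, 1.47 for Cenpi, 1.04 for the mitotic kinase gene Aurka, -0.95 for Cdca8 (0.25 on its second probe) and -0.9 for Mcm3. Within slides 1, 2 and 3 the Cenpi value was 4.04, -0.41 and 0.79, and late Dunn array 1 lay on slide 1.

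The proliferation marker Mki67, a coat protein of mitotic chromosomes, varied more between replicates than between groups. It was 3.31, 3.83 and 6.05 in early Dunn, 3.31, 3.36 and 4.94 in late Dunn, 2.77, 4.38 and 5.04 in early LM8 and 3.25, 4.55 and 4.38 in late LM8. Every group thus spanned over 1 unit, and array 1 was the lowest of each. The line difference was -0.07 (SE 0.54). A second Mki67 probe gave 0.7 for the lines and 0.78 for late against early Dunn, where the first gave -0.52, and neither was called.

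The spread within groups had a median SD of 0.32 over the 46 genes and of 0.27 over all genes well above background on every array measured. It was over 0.5 in 15 of the 46 and under 0.3 in 22. It was highest for Cenpf (1.22) and for Cenpe (1.21), a kinetochore motor, both named after their values were seen. Cenpe was 1.52, 2.31 and 4.5 in early Dunn, 2.06, 2.26 and 3.79 in late Dunn, 1.43, 3.59 and 4.21 in early LM8 and 2.15, 3.46 and 3.12 in late LM8. The order of the arrays within each of the 4 groups was that of Mki67. The slide moves with this spread, since array numbers mark slides, and its part was not tested gene by gene.

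Regulators of the cycle outside the 46 genes were described from lists of related genes. The CDK inhibitor Cdkn1a (p21), a p53 target that halts the cycle, was 3.31, 3.28 and 3.72 in early Dunn and 2.84, 2.65 and 2.88 in late Dunn, against 2.15, 2.39 and 1.85 in early LM8 and 1.5, 1.43 and 1.27 in late LM8. On this probe the 4 groups did not overlap, but neither late against early Dunn (-0.65, adjusted p = 0.782) nor late against early LM8 (-0.73, adjusted p = 0.199) was called, and the second probe gave 0.21 for Dunn. With passages pooled LM8 differed from Dunn by -1.35 (SE 0.26, 2.55-fold, limma adjusted p = 0.00491), and its second probe gave -0.74 (adjusted p = 0.0304). Without scaling the first probe gave -0.18 (adjusted p = 0.638). At late passage the difference was -1.39 (adjusted p = 0.0346), which the replicate block moved to 0.172. The inhibitors Cdkn2d (1.46, adjusted p = 0.0158) and Cdkn2c (1.19, adjusted p = 0.0447) were higher in LM8, and Cdkn2a was well above background on 0 arrays. Of the 7 inhibitors 2 were higher and 1 was lower.

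Among 15 measured G1 cyclins, CDKs and partners, 1 was higher and 2 were lower in LM8 with passages pooled. The higher one was Cks2, a small CDK-binding protein (1.92, adjusted p = 0.00556), and the lower ones were the phosphatase gene Cdc25a (-1.26, adjusted p = 0.00145, and -0.09 without scaling) and Cdk2 (-0.45, adjusted p = 0.0408, and 0.72 without scaling). Ccnd1, the main cyclin D, differed by -0.37 (SE 0.24) and was not called.

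Cyclin D2 (Ccnd2), which pairs with Cdk4 and Cdk6 to open G1, had a passage difference that was not the same in both lines. It was -1.29, -1.57 and -1.79 in early Dunn and 2.88, 2.72 and 2.51 in late Dunn, against 2.21, 1.59 and 1.57 in early LM8 and 2.32, 2.42 and 2.09 in late LM8. The 3 early Dunn arrays stood apart from the other 9, and its single probe was well above background on all 12. Early LM8 exceeded early Dunn by 3.34 (SE 0.34, 10.1-fold, limma adjusted p = 0.00454). Late minus early Dunn was 4.26 (SE 0.31, adjusted p = 0.0859) and late minus early LM8 was 0.49 (SE 0.24, adjusted p = 0.302), neither called. The interaction of line and passage was called, at -3.77 (SE 0.36, adjusted p = 0.0021).

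**Figure D5:**
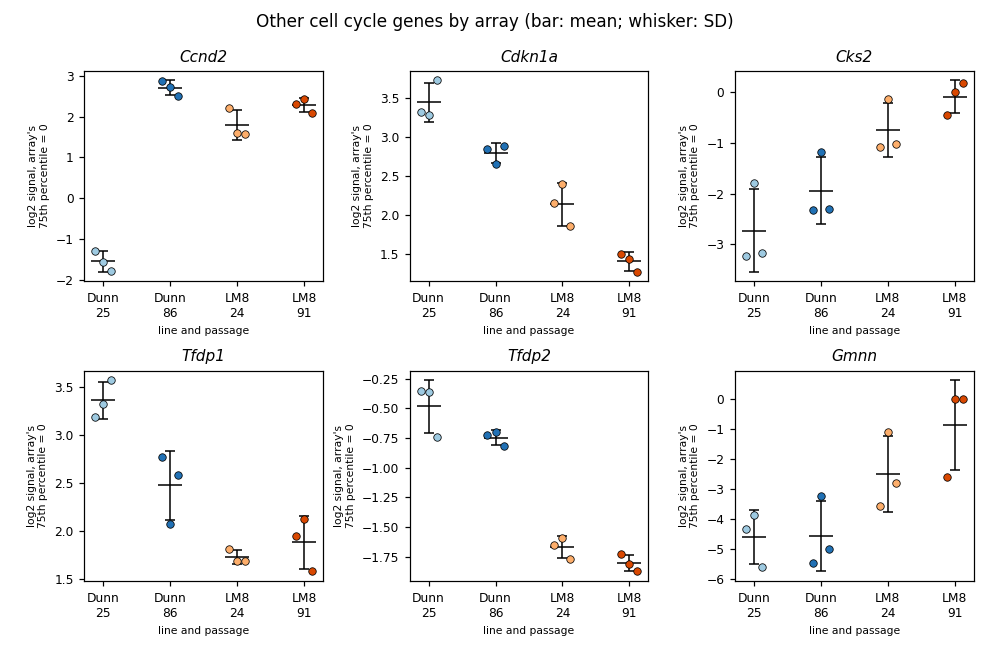
Levels of cell cycle regulators outside the 46 genes on each array, as log2 signal relative to the 75th percentile of the array, with 1 point per array, a bar at the mean of each group and whiskers of 1 SD, for Ccnd2, Cdkn1a, Cks2, Tfdp1, Tfdp2 and Gmnn on separate scales. Cdkn1a is lower on the 6 LM8 arrays than on the 6 Dunn arrays, and Ccnd2 is low on the 3 early Dunn arrays and high on the other 9.

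In the Rb and E2F family, 1 of 15 genes was higher and 4 were lower with passages pooled. E2f5, a repressor E2F, differed by 1.98 (adjusted p = 0.0307), and was well above background on 1 of 3 early Dunn arrays. Rb1, the pocket protein that restrains E2F, differed by -0.58 (adjusted p = 0.0368, and 0.58 without scaling). The E2F partner Tfdp1 differed by -1.11 (adjusted p = 0.0126, and 0.06 without scaling) and was also called at early passage (-1.63, adjusted p = 0.0335, or 0.084 with the replicate block). Its relative Tfdp2 differed by -1.12 on one probe (0.04 without scaling) and by -0.05 on another.

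Of 40 other replication factors, 4 were higher and 8 were lower. Gmnn (geminin, which blocks Cdt1 from relicensing origins) was highest at 2.9 (SE 0.67, adjusted p = 0.0133), and was well above background on 1 of 3 early and 2 of 3 late Dunn arrays. Pola1, a subunit of the polymerase that starts new strands, was higher by 1 (adjusted p = 0.0329), and Gins3, of the helicase's GINS partner, by 0.89 (adjusted p = 0.0242). Of 32 other kinetochore and checkpoint genes, 3 were higher and 9 were lower. Among the lower ones, Pmf1 differed by -1.06 (0.1 without scaling) and Cenpq by -1.01 (0.16 without scaling, and -0.18 on a second probe).

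Of 16 measured condensin and cohesin genes 1 was higher and 4 were lower, with Smc2, a condensin core subunit, at 2.22 (SE 0.51, adjusted p = 0.0126), Ncaph2, of condensin II, at -1.53 (adjusted p = 0.00761, and -0.37 without scaling) and the cohesin protease separase (Espl1) at -1.1 (adjusted p = 0.00396, and 0.07 without scaling). Of 27 measured spindle and cytokinesis genes outside the 46, 1 was higher and 4 were lower. Melk, a mitotic kinase, differed by 0.82 (adjusted p = 0.0409), the centrosome kinase gene Nek2 by -1.16 (adjusted p = 0.00164, and 0.01 without scaling) and the centriole gene Sass6 by -0.66 (adjusted p = 0.0467, and 0.51 without scaling). All p-values of these regulators are limma's, adjusted over all probes. Each list had called genes in both directions, and over all genes 5.71% were higher and 37.9% lower.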

How the data were processed

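Total RNA of 12 samples was hybridised to Agilent mouse 4x44k v2 arrays with the dye Cy3. The authors deposited the scanner output of Agilent Feature Extraction 10.7.3, in which the processed signal is a background-subtracted intensity on a linear scale, and 1 table of the same intensity values without scaling between arrays. The labels name RNeasy for RNA extraction and the paper TriReagent.

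Control spots and outlier spots were left out and 43020 spots averaged into 39429 probes. From the deposited intensities, log2 signal minus the 75th percentile of each array was computed. Accessions matched 26581 probes (67.4%) to 20144 genes of the RefSeq annotation on GRCm38.p6. A gene was represented by its brightest probe on average. No probe was saturated. Groups were compared with limma 3.58.1 (lmFit, eBayes) in R 4.3.3 on the arrays of the groups compared, with Benjamini-Hochberg adjustment over all probes and a threshold of 0.05. The fit was tested on simulated data, with differences larger than most seen here and no correlation within slides. That test checks the estimates and cannot show how often differences of the size seen here would be called. The members and lists were chosen with earlier results of these data known.

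Named genes were those called (at most 10 a comparison), the 3 highest and 3 lowest differences of each comparison, 9 fixed genes (Mki67, Top2a, Ccnb1, Cdk1, Mcm2, Pcna, E2f1, Ccne1 and Cenpi), and of the other lists at most 3 called genes a comparison with Cdkn1a, Cdkn2a, Ccnd1 and Rb1. The highest and lowest differences were taken among genes well above background on all arrays of at least 1 group. A second probe is given where it differs in sign or by more than 1. One gene that this rule names is not reported here.

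The paper names 3 RNA samples per condition, and 3 independent extracts for its PCR on RNA used for the arrays. Nothing states whether the 3 arrays of a group came from separate cultures. The p-values therefore measure the spread between arrays, which may be technical, and the number of arrays limits the precision. Array numbers mark the slide. The 4 groups shared every slide and kept their positions on it, so position and group cannot be told apart. Deviations from group means of the arrays of 1 slide correlated at 0.161 to 0.541 in 18 of 18 pairs over the 12754 probes that were bright on 12 arrays, and at -0.23 to 0.683 over all 39429 probes, where 12 pairs exceeded 0.1. The arrays were taken as paired by slide, but the limma fits held no term for the slide except where the replicate block is named. The other standard errors and p-values therefore do not account for the pairing. Alternatives were quantile normalization, the percentile over bright probes, normexp background correction with an offset of 50 on the median signals, unscaled signals, a filter on dim probes, the mean of a gene's probes, 1 fit over all 12 arrays, the replicate block, array weights, the methods' t-test and leaving out each array. The paper names a t test together with limma, and the t-test here was an ordinary equal-variance test on the scaled values, not the authors' own run. Keeping outlier spots and leaving out slide 1 were added after seeing the data.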

Additional observations from a re-analysis of the deposited data

Results flagged for a closer look

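Ccnd2, the cyclin D2 gene, had a passage effect that differed between the lines by the test of the difference itself. The interaction of line and passage was -3.77 on the log2 scale (SE 0.36, limma adjusted p = 0.0021), as late minus early passage was 4.26 in Dunn and 0.49 in LM8. The 3 early Dunn arrays, at -1.29 to -1.79, lay below the other 9, at 1.57 to 2.88. The interaction was called under all 23 alternatives, at -4.37 to -3.06. Ccnd2 has 1 probe on the array.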

How the results depend on the processing

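With 3 arrays a group, the spread between arrays limits what could be called. The counts below are given without the share of all genes called under each setting, so they describe the settings. Leaving out 1 array gave 0 to 0 called genes of the 46 for Dunn passage and for the interaction, 0 to 1 for LM8 passage (1 without early LM8 array 2), 0 to 10 for LM8 against Dunn at early passage (10 without early Dunn array 2), 0 to 1 at late passage (1 without late Dunn array 1) and 2 to 14 with passages pooled. The medians then ran from -0.38 to -0.08, 0.03 to 0.07, -0.35 to -0.1, -0.14 to -0.06, -0.2 to -0.08 and, for the interaction, 0.06 to 0.29. With passages pooled the count of 12 became 6 under quantile normalization, 4 with the percentile over bright probes, 19 without scaling, 4 with outlier spots kept, and 3 without slide 1, with outlier spots left out or kept. At early passage the count of 0 became 1 under quantile normalization, 5 without scaling, 7 with the filter on dim probes, 5 in the fit over all 12 arrays and 21 with array weights. At late passage it became 1 with normexp, 2 with the filter, 1 in the fit over all arrays, 3 with weights, 1 by the methods' t-test, 2 without slide 1 and 3 without slide 1 with outlier spots kept. Without scaling the medians were 0.73 (Dunn passage), 0.43 (LM8 passage), 1.22 (early), 0.77 (late), 0.97 (pooled) and -0.38 (interaction). With the percentile over bright probes they were 0.12 for LM8 passage, 0.21 early, 0.14 late and 0.16 pooled. For LM8 passage the median was 0 with quantile normalization, 0.02 with normexp, 0.04 with the mean of probes and 0.09 without slide 1 with outlier spots kept. The replicate block called 12 genes of the 46 with passages pooled, 10 of them among the 12 without it, and moved Mcm4 to an adjusted p of 0.0549 and Top2a to 0.0349. It moved Tfdp1 at early passage to 0.084, Cdkn1a at late passage to 0.172 and Cdkn2a, pooled, to 0.0406, added Cdc6 and lost Rrm2, and changed no other call among the genes named. Without scaling, pooled differences turned positive for Foxm1 (0.43), Nuf2 (0.48), Mcm4 (0.55), Ccnb1 (1.09), Cdk1 (0.54, and 0.14 with the mean of probes), E2f1 (1.11), Rb1 (0.58), Pmf1 (0.1), Cenpq (0.16), Espl1 (0.07), Tfdp2 (0.04), Tfdp1 (0.06), Cdk2 (0.72), Nek2 (0.01) and Sass6 (0.51). They also did for the uncalled Mki67 (1.1), Ccne1 (0.97) and Ccnd1 (0.8). Unscaled signals hold the brightness of the whole array, which was higher in LM8. For the other changes the cause was not tested.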
